A study of Homo sapiens with 4 samples.

Results

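Of the 17894 genes listed for each library, 9 transcription factors of the early neural lineage and the epiblast were followed here, namely HES3, FOXD3, SOX1, SOX3, SOX21, PAX6, OTX2, ZIC1 and ZIC2. They were chosen by name with earlier results of the same 4 libraries known, and their FPKM values were part of that choice, so the values below are a description and no test was run on them. FPKM counts the sequenced fragments of a gene relative to transcript length and to all fragments of the library, so levels can be set side by side between genes. All cells came from H1, a human embryonic stem cell line, which was induced toward blood on mAGM-S3, a mouse stromal cell line, and human cells were sorted at day 2 with an antibody to TRA-1-85, an antigen of human cells. The series held 1 library of untreated wild type cells (control), 1 of wild type cells treated during the first day with 20 ng/mL R-spondin2, and 1 library each of the cells labelled LGR4-/--1 and LGR4-/--2, called LGR4-/- 1 and LGR4-/- 2 here. Neither LGR4-/- culture was given R-spondin2 according to its label. Nothing in the labels says how LGR4 was disrupted or whether each culture grew from a single clone. Each condition other than LGR4-/- had 1 library, so no difference from the control has a replicate check on the control side.

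The epiblast is the pluripotent layer of the embryo from which both ectoderm and mesoderm arise. As it forms the primitive streak, WNT, NODAL and BMP signals raise mesoderm genes and the factors that hold the pluripotent or neural state are lost, while cells that escape these signals turn toward neural ectoderm. R-spondin2 is a secreted protein that strengthens WNT signals, and LGR4 is a receptor for it. SOX1, SOX3 and their relative SOX2 are closely related activators of neural progenitor genes, and SOX2 also sustains pluripotency. SOX21 is a related factor that acts mainly as a repressor. FOXD3 is a forkhead factor of the epiblast and, later, of the neural crest, and HES3 is a repressor of the HES family. OTX2 is a homeodomain factor of the epiblast and the anterior neural plate, PAX6 is a paired box factor of the eye and the forebrain, and ZIC1 and ZIC2 are zinc finger factors of the neural plate.

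The 4 factors HES3, FOXD3, SOX21 and SOX3 shared the order LGR4-/- 1, LGR4-/- 2, control, R-spondin2 from the highest to the lowest level, and ZIC2 had nearly the same level in all 4 libraries. The 250 bases before the RefSeq start (GRCh38.p14) of these 4 genes and of ZIC2 are shown so that the genes that shared an order can be read beside the one whose level was flat. Each is written 5′ to 3′ on the strand of its gene, and capitals mark every match, on either strand, to CTTTGA (a core known to be bound by TCF/LEF factors), its variant CTTTGT (which SOX factors also bind), TTTGCAT (the octamer core bound by POU factors), CCAAT (the motif of NF-Y), TATAAA (the TATA box), GGGCGG (the GC box), CACGTG (an E box) or TGACGTCA (the cAMP response element).
HES3 (chr1:6243929-6244178, plus strand): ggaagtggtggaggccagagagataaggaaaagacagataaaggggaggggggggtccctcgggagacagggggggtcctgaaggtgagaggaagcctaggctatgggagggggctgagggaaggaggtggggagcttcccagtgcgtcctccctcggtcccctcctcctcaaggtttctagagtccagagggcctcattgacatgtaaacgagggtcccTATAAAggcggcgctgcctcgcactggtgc
FOXD3 (chr1:63322317-63322566, plus strand): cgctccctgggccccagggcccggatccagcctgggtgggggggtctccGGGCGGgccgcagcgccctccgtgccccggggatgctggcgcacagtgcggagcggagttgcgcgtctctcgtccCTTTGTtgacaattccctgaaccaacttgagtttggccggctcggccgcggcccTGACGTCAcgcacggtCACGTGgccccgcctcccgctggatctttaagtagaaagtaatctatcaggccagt
SOX21 (chr13:94712546-94712795, minus strand): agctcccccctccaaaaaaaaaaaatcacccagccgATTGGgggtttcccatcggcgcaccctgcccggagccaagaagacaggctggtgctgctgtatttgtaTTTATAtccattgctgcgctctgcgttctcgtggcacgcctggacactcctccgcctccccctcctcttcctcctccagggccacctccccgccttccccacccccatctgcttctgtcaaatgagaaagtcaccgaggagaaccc
SOX3 (chrX:140505070-140505319, minus strand): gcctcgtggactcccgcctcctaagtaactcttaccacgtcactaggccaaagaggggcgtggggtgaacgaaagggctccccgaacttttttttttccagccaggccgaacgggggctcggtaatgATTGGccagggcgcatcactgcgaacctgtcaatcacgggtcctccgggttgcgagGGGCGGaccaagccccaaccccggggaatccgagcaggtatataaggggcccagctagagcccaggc
ZIC2 (chr13:99981534-99981783, plus strand): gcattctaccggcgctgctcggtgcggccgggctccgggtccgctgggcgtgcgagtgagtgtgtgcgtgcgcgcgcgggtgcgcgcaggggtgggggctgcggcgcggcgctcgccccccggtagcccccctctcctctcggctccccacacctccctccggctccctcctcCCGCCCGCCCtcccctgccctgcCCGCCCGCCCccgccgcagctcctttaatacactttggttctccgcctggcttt

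These 4 genes had no motif of the set in common. The window of HES3 held a TATAAA beginning 30 bases before the start, a motif present in 10.7% of the 35116 windows of this length in the table, and SOX21 held one 146 bases before its start. GGGCGG, present in 42.6% of windows, was found in FOXD3, SOX3 and ZIC2, where ZIC2 had 4 matches that overlap in pairs. CCAAT, in 32% of windows, was found in SOX3 and SOX21. The FOXD3 window also held the core CTTTGT (13.7% of windows), the E box (6.34%) and the cAMP response element (1.65%). Neither CTTTGA (11.2%) nor the octamer core (3.94%) matched any of the 5 windows. CpG dinucleotides numbered 7 in HES3, 24 in FOXD3, 11 in SOX21, 17 in SOX3 and 31 in ZIC2, beside a median of 11 over all windows. A match is a string of letters and not a shown binding site, and the motifs were picked without a test. In GENCODE release 29 HES3 (6244192), FOXD3 (63323041) and SOX21 (94712399) begin downstream of the RefSeq starts used for their windows. SOX3 (140505116) and ZIC2 (99981772) begin there inside the windows shown. Which start these cells used was not tested.

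The level of LGR4 itself was 21.77 FPKM in control cells, 24.26 with R-spondin2, 7.4 in LGR4-/- 1 and 13.95 in LGR4-/- 2. Its RNA was lower in both libraries labelled LGR4-/- but still present, more so in the second, and FPKM of the whole gene cannot show whether the RNA carried a disruption. The depth of the libraries, estimated from the low FPKM values, was between 8850000 and 9040000 reads, and intervals given below with FPKM values are exact 95% Poisson intervals of the reads implied by that depth. They cover counting error only and are given for the 7 factors listed with 1 RefSeq transcript whose length was found. Changes are differences in log2(FPKM+1), a scale on which low genes appear to change less than they do, and shares of all genes refer to the 12697 genes, called tested genes here, whose 4 libraries averaged 1 FPKM or more. HES3, FOXD3, SOX3, OTX2 and ZIC2 passed this filter. SOX21 fell just outside it with a mean of 0.99 FPKM, while SOX1, PAX6 and ZIC1 had means of 0.02, 0.3 and 0.34.

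**Figure D1:**
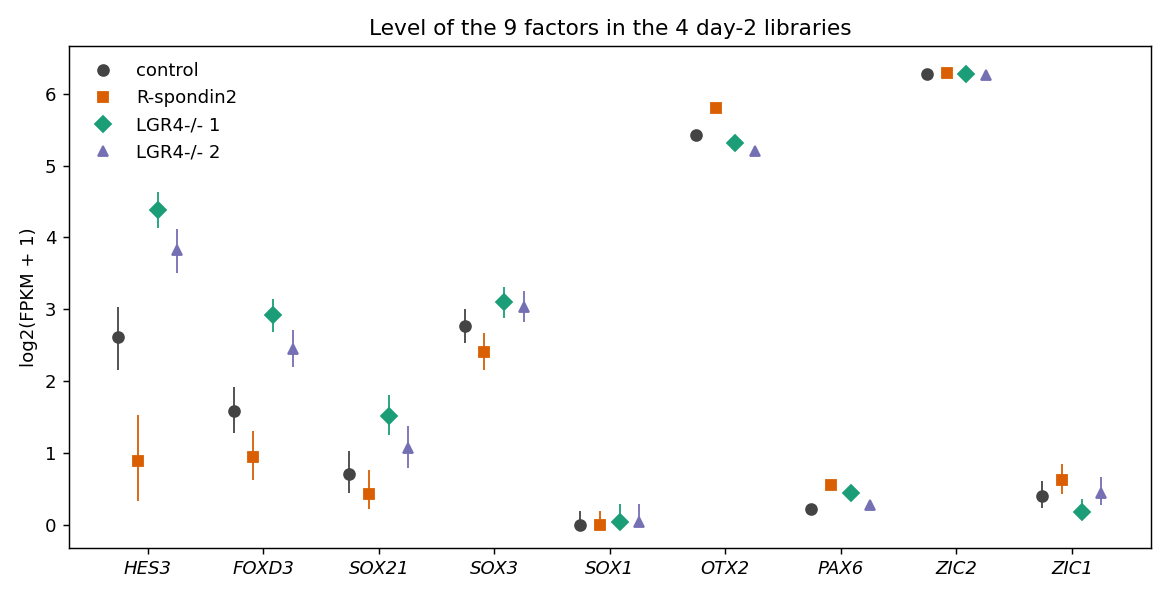
The level of each factor on the log2(FPKM+1) scale is plotted for the control, R-spondin2, LGR4-/- 1 and LGR4-/- 2 libraries, with vertical lines for the 95% counting intervals where a transcript length was known. HES3 spans the widest range, from 0.85 to 19.92 FPKM, and ZIC2 the narrowest, from 75.64 to 77.03 FPKM.

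HES3 (NCBI gene 390992; chromosome 1, 6244192 to 6245578 in GENCODE release 29 on GRCh38) was at 5.15 FPKM in the control (interval 3.47 to 7.17), 0.85 with R-spondin2 (0.263 to 1.89), 19.92 in LGR4-/- 1 (16.6 to 23.8) and 13.14 in LGR4-/- 2 (10.4 to 16.3). None of these intervals overlapped another. The R-spondin2 level rested on about 5 implied reads against 32 in the control, so the ratio of 6.06 between them is imprecise. In log2(FPKM+1) the difference from the control was -1.73 with R-spondin2, and no tested gene had a lower one. SOX2 was close at -1.67, and the rank of HES3 is as imprecise as its ratio. The LGR4-/- libraries differed from the control by 1.77 and 1.2, with a mean of 1.48 (SD 0.4, n = 2) that 3 tested genes exceeded. HES3 was also the factor with the widest gap between the R-spondin2 and LGR4-/- libraries, which do not involve the control, at 23.4 times and 15.5 times the R-spondin2 level. Each library is a bulk sample, in which fewer cells of a type and less RNA per cell cannot be told apart.

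FOXD3 (NCBI gene 27022; chromosome 1, 63323041 to 63325126) had 1.99 FPKM in the control (interval 1.43 to 2.77), 0.92 with R-spondin2 (0.536 to 1.47), 6.56 in LGR4-/- 1 (5.44 to 7.83) and 4.47 in LGR4-/- 2 (3.58 to 5.57). Both LGR4-/- levels lay above the control beyond the counting intervals, while the control and R-spondin2 intervals met at their edges, as did those of the LGR4-/- libraries. The difference from the control was -0.64 with R-spondin2, and 129 tested genes had a lower one. It was 1.34 in LGR4-/- 1 and 0.87 in LGR4-/- 2, a mean of 1.1 (SD 0.33, n = 2), and 43 tested genes had a higher mean. On this scale LGR4-/- 1 alone was past 1, although the plain FPKM ratio to the control was 3.3 in LGR4-/- 1 and 2.25 in LGR4-/- 2. With a pseudocount of 0.1 FPKM in place of 1, the R-spondin2 difference became -1.03, and the plain FPKM was 2.16 times lower than in the control. An antisense gene, FOXD3-AS1, overlaps FOXD3 on the opposite strand, and since the counting is not stated to use strand, reads of the pair cannot be told apart.

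SOX21 (NCBI gene 11166; chromosome 13, 94709622 to 94712399) was low throughout, at 0.64 FPKM in the control (interval 0.364 to 1.03), 0.35 with R-spondin2 (0.167 to 0.695), 1.86 in LGR4-/- 1 (1.37 to 2.5) and 1.1 in LGR4-/- 2 (0.724 to 1.6). In order of level the intervals of neighbours overlapped. LGR4-/- 1 was clear of the control and R-spondin2, and LGR4-/- 2 was clear of R-spondin2. Differences from the control were -0.28 with R-spondin2, 0.8 in LGR4-/- 1 and 0.36 in LGR4-/- 2, and the mean of the last pair was 0.58, or 1.05 with a pseudocount of 0.1.

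SOX3 (NCBI gene 6658; chromosome X, 140502985 to 140505116) had 5.82 FPKM in the control (interval 4.78 to 6.99), 4.32 with R-spondin2 (3.46 to 5.39), 7.59 in LGR4-/- 1 (6.39 to 8.93) and 7.21 in LGR4-/- 2 (6.05 to 8.53). The control overlapped every other library, and R-spondin2 lay below both LGR4-/- libraries. Its differences from the control were small, -0.36 with R-spondin2 and a mean of 0.3 (SD 0.05, n = 2) in the LGR4-/- libraries, and 1794 tested genes had a higher LGR4-/- mean. FOXD3, SOX21 and SOX3 each have a single exon in the RefSeq transcript, as has SOX1, and HES3 has 4.

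SOX1 (NCBI gene 6656), a marker of committed neural ectoderm, was listed at 0 in the control and with R-spondin2 and at 0.03 FPKM in both LGR4-/- libraries, which is about 1 read each. A count of 0 allows a level of up to 0.117 FPKM in the control and 0.119 with R-spondin2 at a limit of 3 reads, or 0.144 and 0.147 by the exact interval used for the other factors, above what the LGR4-/- libraries had, so no difference was detectable at this depth.

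OTX2 (NCBI gene 5015; chromosome 14, 56799905 to 56810479) ran the other way, with 41.96 FPKM in the control, 54.9 with R-spondin2, 38.65 in LGR4-/- 1 and 35.85 in LGR4-/- 2. R-spondin2 was the highest and both LGR4-/- libraries were the lowest. The difference from the control was 0.38 with R-spondin2, which 336 tested genes exceeded, and -0.12 and -0.22 in the LGR4-/- libraries, a mean of -0.17 (SD 0.07, n = 2) that 2472 tested genes lay below. With 5 RefSeq transcripts of OTX2 and 11 of PAX6, no reads were computed for these genes.

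PAX6 (NCBI gene 5080) was at 0.16 FPKM in the control, 0.47 with R-spondin2, 0.36 in LGR4-/- 1 and 0.21 in LGR4-/- 2. All 4 levels were below 1 FPKM, with the control lowest and R-spondin2 highest. The gene overlaps ELP4 and PAUPAR on the opposite strand, so values this low may hold reads of other transcripts.

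ZIC2 (NCBI gene 7546; chromosome 13, 99981772 to 99986773) was the most abundant of the 9 in every library. It was at 76.83 FPKM in the control (interval 73.6 to 80.2), 77.03 with R-spondin2 (73.7 to 80.5), 76.58 in LGR4-/- 1 (73.3 to 80) and 75.64 in LGR4-/- 2 (72.4 to 79). All intervals overlapped, with 1997 to 2072 implied reads behind each value, and the widest difference from the control was -0.02. Over the processing alternatives the R-spondin2 difference, rounded to 2 decimals, ran from 0 to 0.01, too close to 0 for a sign to be read.

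ZIC1 (NCBI gene 7545) was at 0.32 FPKM in the control (interval 0.177 to 0.522), 0.54 with R-spondin2 (0.349 to 0.796), 0.13 in LGR4-/- 1 (0.0475 to 0.282) and 0.36 in LGR4-/- 2 (0.214 to 0.587). Only R-spondin2 and LGR4-/- 1 did not overlap, and the LGR4-/- libraries lay on either side of the control. ZIC4, which overlaps ZIC1 on the opposite strand, was at 0.06 FPKM or less in the 4 libraries. In order of level in the control, the factors were ZIC2, OTX2, SOX3, HES3, FOXD3, SOX21, ZIC1, PAX6 and SOX1, and the intervals of SOX3 and HES3 overlapped, as did those of SOX21 and ZIC1.

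**Figure D2:**
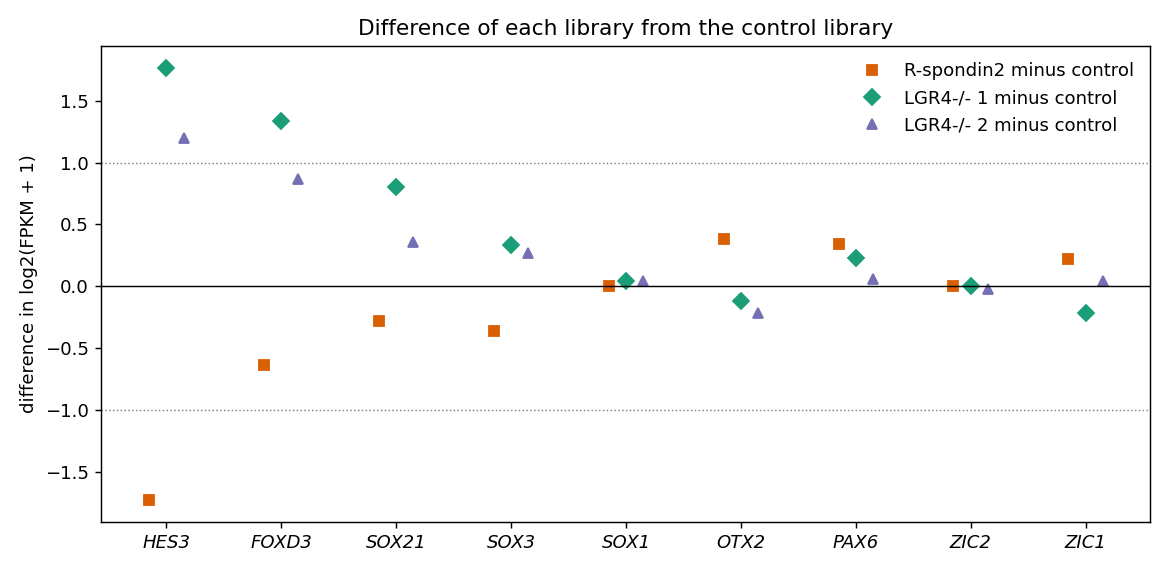
Differences in log2(FPKM+1) from the control library are plotted for R-spondin2, LGR4-/- 1 and LGR4-/- 2, with dotted lines at a difference of 1 in either direction. For HES3, FOXD3, SOX21 and SOX3 the R-spondin2 point lies below 0 and both LGR4-/- points above it, and all 3 differences of a gene use the same control library.

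Genes were counted at a difference in log2(FPKM+1) of at least 1, which at low levels needs more than a 2-fold change in FPKM. With R-spondin2, 1 of the 5 factors that passed the filter was lower by this much (HES3) and 0 were higher. Over all tested genes 0.173% were lower by this much and 0.0473% higher. In the mean of the LGR4-/- libraries 2 of the 5 were higher (HES3 and FOXD3) and 0 lower, where 0.559% of all genes were higher and 1.69% lower. Between the LGR4-/- libraries no factor reached a difference of 1, and 0.173% of all genes were higher and 0.0788% lower in LGR4-/- 2. HES3 was lower there by 0.57 on the log2 scale and FOXD3 by 0.47, so that in both genes LGR4-/- 1 lay farther from the control. SOX3 did so slightly (0.33 in LGR4-/- 1 and 0.27 in LGR4-/- 2). For OTX2 LGR4-/- 2 lay farther (-0.12 and -0.22), and ZIC2 was flat. These contrasts were known when the genes were chosen, and nothing is read from the counts. R-spondin2 and the LGR4-/- libraries were compared with the same control library, and a high or low control value of a gene would move both comparisons in the same direction.

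**Figure D3:**
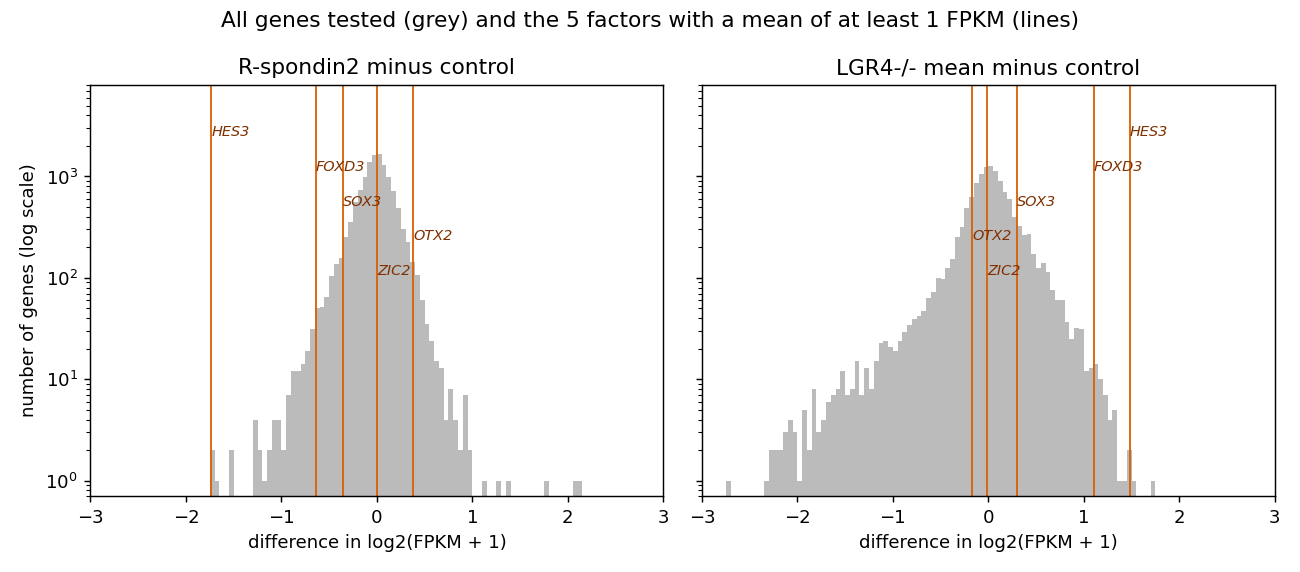
The number of genes, on a log scale, is plotted against the difference in log2(FPKM+1) for the 12697 tested genes, on the left for R-spondin2 and on the right for the mean of the LGR4-/- libraries, with lines at the 5 factors that passed the filter. HES3 lies at the lower end on the left (-1.73) and near the upper end on the right (1.48), and ZIC2 lies at 0 and -0.01.

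The profile of each factor over the 4 libraries, centred on its own mean, was compared with that of every other tested gene by the root mean square difference in log2(FPKM+1). The closest gene to HES3 was SOX2, at a distance of 0.0722, and it was the only one within 0.1. SOX2 had 19.89 FPKM in the control, 5.58 with R-spondin2, 65.99 in LGR4-/- 1 and 50.67 in LGR4-/- 2, and it overlaps SOX2-OT on the same strand. The next were PPP2R2B at 0.287 and PRDM14, a pluripotency factor, at 0.359. FOXD3 had 20 genes within 0.1, led by AASS (0.0212), DHRS3, a retinaldehyde reductase (0.0395), and BCAM (0.0448). For the smaller changes the likeness means less, as 476 genes lay within 0.1 of SOX3, 210 of OTX2 and 5219 of ZIC2. The nearest were RIC8B, CXADR and SALL3 for SOX3, MORC4, TMEM133 and ENTPD4 for OTX2, and ENY2, SENP1 and ESPL1 for ZIC2. With 4 libraries such distances are a description of these libraries only.

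**Figure D4:**
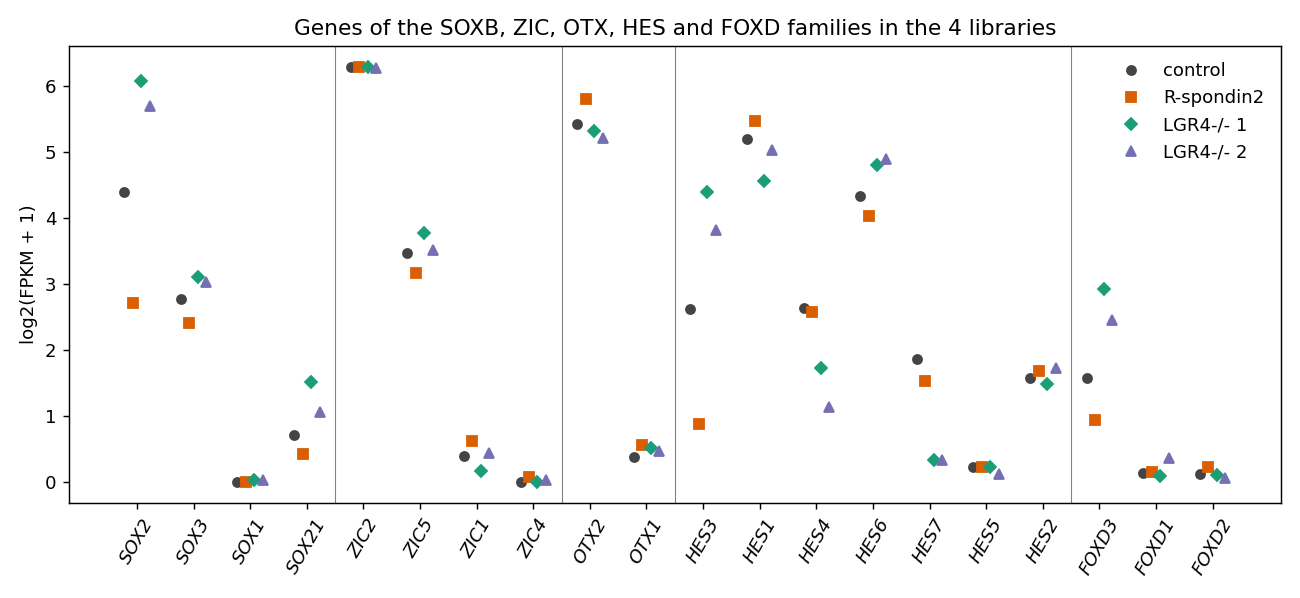
Levels on the log2(FPKM+1) scale are plotted for genes of the SOXB, ZIC, OTX, HES and FOXD families in the 4 libraries, each family set apart by a vertical line. SOX2, HES3 and HES6 are lowest with R-spondin2 and highest in the LGR4-/- libraries, whereas HES7, HES4 and HES1 are lowest in the LGR4-/- libraries.

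Relatives of the factors differed among themselves. Of 16 other SOX genes 12 passed the filter, and SOX2 alone reached a difference of 1 in either comparison, with -1.67 for R-spondin2 and a mean of 1.49 in the LGR4-/- libraries. The median of the 12 was -0.05 with R-spondin2 and 0.13 in the LGR4-/- libraries, where the median of all tested genes was -0.008 and 0.018. SOX2, SOX4, SOX9, SOX11, SOX13 and SOX15 had the order of libraries seen in HES3, and the rest of the 12 did not. SOX15 (-0.59 with R-spondin2 and 0.41 in the LGR4-/- mean) differed more than SOX3 (-0.36 and 0.3). ZIC5 had this order as well. Of 21 ZIC, OTX, PAX, HES and FOXD relatives 8 passed, none reached a difference of 1 with R-spondin2 (largest change HES7, -0.33), and 2 were lower by at least 1 in the LGR4-/- mean. These were HES7, an oscillating repressor of the presomitic mesoderm, which was at 2.64 FPKM in the control, 1.9 with R-spondin2 and 0.27 in both LGR4-/- libraries, and HES4, at 5.22, 4.99, 2.32 and 1.2 FPKM in the same order. Within the HES family, HES3 was thus higher and HES7 and HES4 lower in the LGR4-/- libraries. HES6 ran the way of HES3 by less (-0.31 with R-spondin2 and 0.52 in the LGR4-/- mean). HES1 ran the other way (0.27 and -0.39). The median of the 8 relatives was 0.03 with R-spondin2 and -0.21 in the LGR4-/- libraries.

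Other neural ectoderm genes were mixed. Of 32 listed, 11 passed the filter and 15 stayed below 1 FPKM in every library, among them NEUROG1, a neuronal determination factor, at 0 in all 4. With R-spondin2 0 of the 11 reached a difference of 1, the largest change was 0.38 in ZNF521 (7.94 to 10.64 FPKM), and the median was -0.06. In the LGR4-/- mean the median was -0.25, 0 were higher by at least 1 and 1 was lower, the adhesion molecule NCAM1, at 12.04 FPKM in the control and 2.86 and 3.71 in the LGR4-/- libraries. In LGR4-/- 1 taken by itself 160 of the 12697 tested genes were higher by at least 1, and 2 of them were among the 11. These were POU3F1, a POU factor of the epiblast and neural ectoderm, at 1.06 FPKM in the control, 0.78 with R-spondin2, 4.06 in LGR4-/- 1 and 2.19 in LGR4-/- 2 (mean difference 0.96), and HESX1, a homeodomain repressor of the anterior neural plate, at 0.86, 0.69, 2.87 and 1.55 FPKM in the same order (0.76). HESX1 was below 1 FPKM in the control and with R-spondin2, so it passed the filter only through the LGR4-/- libraries, where it was high. POU3F1, HESX1 and the tubulin gene TUBB3 (115.65, 105.39, 136.57 and 134.77 FPKM) had the order of libraries seen in HES3, and the other 8 of the 11 did not. Of 14 neural crest genes 10 passed. Their median was 0.08 with R-spondin2 (largest change ETS1, 0.42) and -0.54 in the LGR4-/- mean, with MSX1 (-2.08), SNAI2 (-1.7) and MSX2 (-1.16) lower by at least 1. MSX1, SNAI2 and MSX2 are used in mesoderm too.

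Of the lists set beside the factors, the pluripotency and epiblast list had the medians that ran most like HES3 and FOXD3. The medians of the other SOX genes (-0.05 and 0.13) had the same signs but were smaller. Of the 31 pluripotency and epiblast genes 28 passed the filter. With R-spondin2 22 of them were lower and 6 higher than in the control, with a median of -0.24, and SOX2, which the SOX list also holds, was the only gene lower by at least 1 in log2(FPKM+1). In the LGR4-/- mean 24 were higher and 4 lower, with a median of 0.59, and 4 were higher by at least 1. The largest positive differences were in PRDM14 (7.59 FPKM in the control, 3.59 with R-spondin2, 26.75 and 20.52 in the LGR4-/- libraries; mean difference 1.51), SOX2 (1.49) and USP44 (1.36). Summed over the list, the level was 2380 FPKM in the control, 2000 with R-spondin2, and 3730 and 3500 in the LGR4-/- libraries. Over all tested genes 6585 were lower and 6066 higher with R-spondin2, and 6803 were higher and 5894 lower in the LGR4-/- mean.

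Most mesoderm and endoderm genes differed from the control the other way, and the values of these and the remaining lists are given beside those of the factors. All 22 primitive streak and mesoderm genes passed the filter. Their median was 0.28 with R-spondin2 (largest change FOXF1, 0.63) and -1.1 in the LGR4-/- mean, in which 12 were lower by at least 1, led by HAND1 (-2.33), BMP4 (-2.11) and MESP1 (-2.01). The summed level was 1460 FPKM in the control, 1910 with R-spondin2, and 515 and 806 in the LGR4-/- libraries. Of 12 endoderm genes 8 passed, with medians of 0.14 and -0.99. CER1 had the largest difference with R-spondin2 (0.53), and 4 genes were lower by at least 1 in the LGR4-/- mean, led by GATA4 (-1.78), CER1 (-1.61) and GATA6 (-1.5). Of 12 surface ectoderm, amnion and trophoblast genes 5 passed, with medians of 0.05 and -0.16. CDX2 (-1.23) and GATA3 (-1.14) were lower by at least 1 in the LGR4-/- mean. KRT7, an epithelial keratin, had the order of HES3 instead, with 1.6 FPKM in the control, 0.39 with R-spondin2, and 4.67 and 3.37 in the LGR4-/- libraries (differences of -0.9 with R-spondin2 and 0.94 in the LGR4-/- mean). Of 10 fibroblast and stromal genes 8 passed, with medians of 0.4 and -0.25, led by COL3A1 (0.94) with R-spondin2 and LUM (-1.94) in the LGR4-/- mean. Their summed level was 391 FPKM in the control, 469 with R-spondin2, and 318 and 369 in the LGR4-/- libraries. The part of these shifts in the levels of HES3, FOXD3, SOX21 and SOX3 was not tested.

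**Figure D5:**
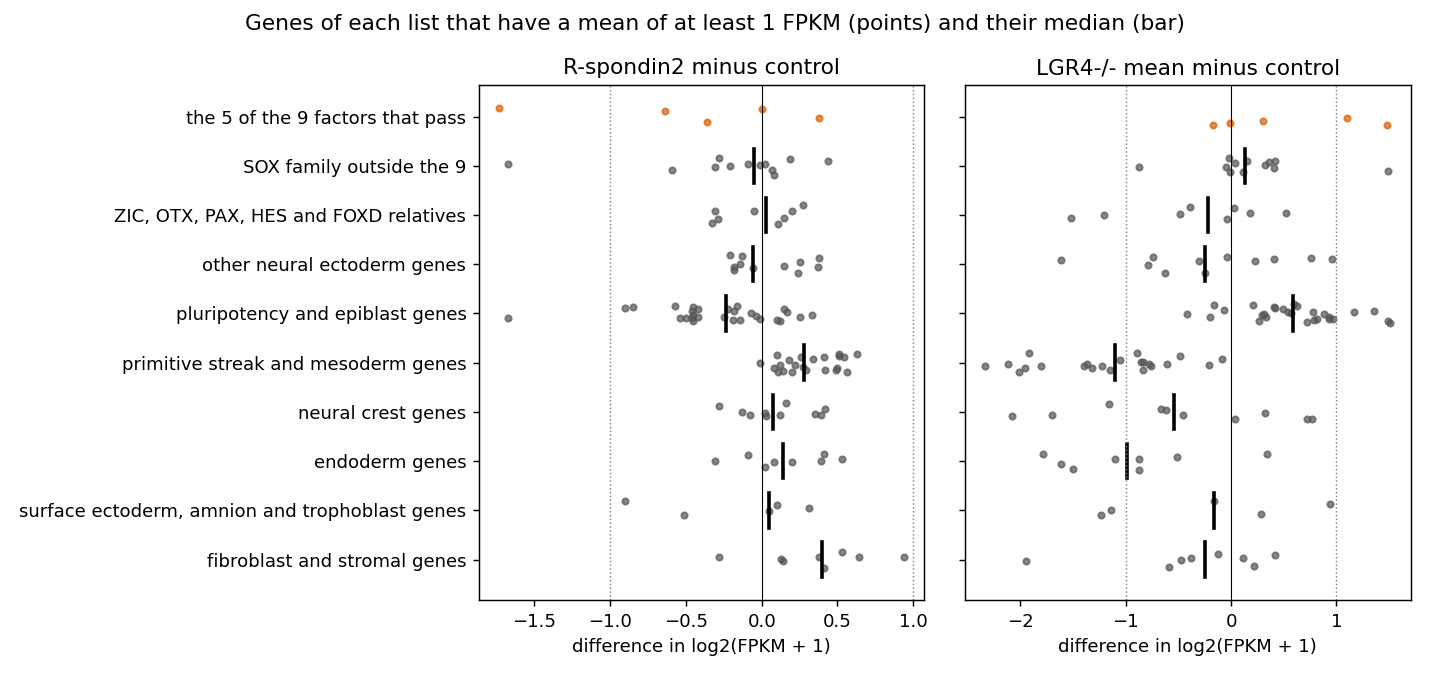
Each point is a gene whose 4 libraries averaged 1 FPKM or more and each bar the median of its list (none is drawn for the 5 factors at the top), with the difference in log2(FPKM+1) from the control on the x axis, on the left for R-spondin2 and on the right for the mean of the LGR4-/- libraries. The median of the pluripotency and epiblast genes lies at -0.24 and 0.59, and that of the primitive streak and mesoderm genes at 0.28 and -1.1.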

How the data were processed

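RNA-SEQ libraries were made from sorted human cells of day 2. The authors deposited FPKM to 2 decimals for 17894 genes with NCBI gene identifiers and RefSeq transcripts. The submitters' processing notes name BWA, Bowtie, RSEM and the build hg19. Versions and filters are not given in the sources used here. Because FPKM are already scaled for length and depth, no count model was applied. Differences were taken on log2(FPKM+1), after the log10(FPKM+1) of the methods, and no p-value was computed. A gene was counted at a difference of at least 1.

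The factors and gene lists were chosen with earlier results of these data known. Named genes were the 9 factors, LGR4, SOX2, the 3 largest differences of at least 1 in each direction in each list for R-spondin2 and for the LGR4-/- mean (or the largest change), and the 3 genes closest in profile. ZIC4 was named after its values were seen, as were ELP4, PAUPAR, FOXD3-AS1, NEUROG1, POU3F1, HESX1 and TUBB3. So were SOX4, SOX9, SOX11, SOX13, SOX15, ZIC5, HES1 and HES6. To estimate depth, read totals in steps of 10000 were tried and the one kept gave the largest share of FPKM below 0.6, in transcripts under 1500 bases, within 0.2 of a whole read. This share was 77.2% to 79.4%, with lengths from GENCODE release 29 for 8068 genes. Coordinates are on GRCh38, not the build of the files, and promoter windows are from RefSeq, in which all 9 factors matched. The depth estimate and the differences were tested on simulated whole reads with the same transcript lengths. The lengths that RSEM itself used are not known here, so an error from them in the implied reads and intervals was not covered. Computations used Python 3.11.15, numpy 2.4.6, pandas 2.3.3, scipy 1.17.1 and matplotlib 3.10.9. Alternatives were a pseudocount of 0.1, no filter, a filter of 5 FPKM, rescaling by the median ratio, a threshold of 1.5-fold on FPKM+1, and each LGR4-/- library left out.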

Additional observations from a re-analysis of the deposited data

How the results depend on the processing

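With 1 control and 1 R-spondin2 library, nothing here separates a condition from its culture, and the HES3 level with R-spondin2 rests on about 5 implied reads, as SOX1, ZIC1 and SOX21 rest on at most 46 in any library. Signs of the differences from the control were compared after rounding to 2 decimals. With R-spondin2 neither the pseudocount nor a filter can reverse the order of 2 values, and the threshold and the left-out libraries do not enter. Only the rescaling could (factors of 0.996 for the control and 0.989 for R-spondin2), so a held sign adds little. Signs held for 8 of the 9 factors. These include SOX1, which was 0 in both libraries and so had no sign, and leave out ZIC2, which rounded to 0 in some settings. In the LGR4-/- mean they held for 7. There ZIC1 crossed 0, from -0.37 to 0.04, and ZIC2 ran from -0.04 to a rounded 0. The count of factors with a difference of at least 1 with R-spondin2 went from 1 to 2 with a pseudocount of 0.1 and with a threshold of 1.5-fold, through FOXD3. In the LGR4-/- mean it went from 2 to 1 with a filter of 5 FPKM, which removes FOXD3, and was between 1 and 2 with each LGR4-/- library left out. The median over all 9 factors in the LGR4-/- mean was 0.15, became 0.38 with a pseudocount of 0.1, and ran from 0.06 to 0.23 with each library left out. The median of the pluripotency and epiblast genes ran from 0.61 to 0.69 when either was left out. A pseudocount of 0.1 moved the genes past this difference from 6 higher and 22 lower to 32 and 107 with R-spondin2, and from 71 and 215 to 226 and 325 in the LGR4-/- mean. At 1.5-fold they were 68 and 186, and 543 and 536. With the 5 FPKM filter they were 0 and 14, and 33 and 146. Without LGR4-/- replicate 1 they were 42 and 149, and without replicate 2 160 and 287. No paired analysis was possible because the control and R-spondin2 had 1 library each and carried no replicate number.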
